A study of Rattus norvegicus with 18 samples.

Results

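The cell cycle and DNA replication genes of the rat adrenal gland were followed as a list of 60 genes, of which 57 carry their listed name on the array and all 57 passed the detection filter, out of 20846 gene names tested. A gene entered when its name in the scanner files matched the list. Where several probes carried that name the brightest was used, so this matching uses no difference between groups. The list itself was chosen with earlier results of these data known. The 57 genes fall by role into 18 replication genes, 27 mitosis genes and 12 genes of G1 and S phase control. Mki67, Cdk1 and Cdc45 were not found under these names. Cdk1 and Cdc45 are present under the older names Cdc2 and Cdc45l, matched by accession in a RefSeq table, and their values are given without being counted.

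Total RNA of whole adrenal glands was measured on 18 single-colour Agilent arrays, 3 in each of 6 groups. The groups were SHRSP (stroke-prone spontaneously hypertensive rats) at 6 weeks, SHR (spontaneously hypertensive rats) at 6 weeks, the normotensive WKY strain at 6 weeks, and SHRSP, SHR and WKY at 3 weeks of age. No group was treated, and the samples are called biological replicates without a statement of which animals they came from. The labels state neither sex nor the hour at which glands were taken.

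A dividing cell copies its DNA in S phase and separates the copies in mitosis. E2F transcription factors, released when cyclin and CDK kinases phosphorylate the retinoblastoma protein, switch on the helicase subunits, polymerase factors and nucleotide enzymes used in S phase. Cyclin B, Cdk1, the Aurora and Polo kinases, spindle motors and checkpoint proteins are transcribed later, in G2 and mitosis, under Mybl2 (B-Myb) and Foxm1, and the adrenal gland keeps a dividing cell population while the young animal grows.

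The division between the replication and the mitosis genes was also visible in promoter sequence, which played no part in their choice. Promoters from RefSeq (build GRCr8, 250 bases before to 50 bases after the start site) were matched for 48 of the 60 listed genes, and both strands were searched for fixed words. The cell cycle homology region, CHR (TTTGAA or TTCGAA), is known from human and mouse cells as the element through which mitosis genes are switched. It was present in 18 of 26 mitosis promoters (69.2%), 3 of 16 replication promoters (18.8%), and 19.5% of all 27457 promoters. An E2F word (TTTCCCGC, TTTGGCGC or TTTCGCGC) was present in 10 of 16 replication promoters (62.5%), 1 of 26 mitosis promoters (3.85%), and 1.82% of all promoters. CCAAT, the word bound by NF-Y, was in 76.9% of mitosis promoters and 68.8% of replication promoters, against 37.7% of all promoters. These matches are descriptions of letters, with E2F words that can overlap each other or a CCAAT word.

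Promoters of 2 mitosis genes and 2 replication genes are printed to show this difference, 5′ to 3′ on the strand of the gene, with the searched words in capitals. Plk1 (Polo kinase) lies at chr1:186147408-186147707 on the plus strand and Top2a (the topoisomerase that untangles sister chromatids) at chr10:84473044-84473343 on the minus strand. Mcm5 and Mcm7, subunits of the replicative helicase, lie at chr19:13488563-13488862 on the plus strand and chr12:22163129-22163428 on the minus strand.
Plk1: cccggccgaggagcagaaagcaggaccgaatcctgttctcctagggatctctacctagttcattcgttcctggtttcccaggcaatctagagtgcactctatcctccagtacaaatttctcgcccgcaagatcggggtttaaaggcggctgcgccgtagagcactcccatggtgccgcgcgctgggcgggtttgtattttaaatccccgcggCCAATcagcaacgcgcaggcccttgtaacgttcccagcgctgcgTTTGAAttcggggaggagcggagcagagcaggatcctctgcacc
Top2a: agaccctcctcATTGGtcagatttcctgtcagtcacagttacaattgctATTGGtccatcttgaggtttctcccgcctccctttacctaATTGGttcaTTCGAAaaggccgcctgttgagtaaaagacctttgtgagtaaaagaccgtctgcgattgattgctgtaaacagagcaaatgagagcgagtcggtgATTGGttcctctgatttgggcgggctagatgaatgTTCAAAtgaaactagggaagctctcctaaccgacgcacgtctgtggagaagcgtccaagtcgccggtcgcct
Mcm5: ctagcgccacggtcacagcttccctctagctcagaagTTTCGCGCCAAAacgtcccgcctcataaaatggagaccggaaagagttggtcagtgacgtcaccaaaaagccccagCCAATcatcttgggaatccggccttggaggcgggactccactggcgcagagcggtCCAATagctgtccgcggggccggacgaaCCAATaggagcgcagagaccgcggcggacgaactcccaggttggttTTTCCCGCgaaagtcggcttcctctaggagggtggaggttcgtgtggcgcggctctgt
Mcm7: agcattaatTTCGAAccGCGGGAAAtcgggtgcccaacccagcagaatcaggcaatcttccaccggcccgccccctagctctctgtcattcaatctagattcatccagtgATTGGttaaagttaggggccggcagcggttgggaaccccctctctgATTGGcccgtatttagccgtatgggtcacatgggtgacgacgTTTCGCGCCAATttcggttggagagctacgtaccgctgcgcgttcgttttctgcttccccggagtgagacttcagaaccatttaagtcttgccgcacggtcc
The Plk1 promoter holds 1 CHR word and 1 CCAAT word, and that of Top2a holds 2 CHR and 4 CCAAT words, with no E2F word in either. The Mcm5 promoter holds 3 E2F and 3 CCAAT words and no CHR, and that of Mcm7 holds 2 E2F, 3 CCAAT and 1 CHR word. Not all mitosis genes share the arrangement: the promoter of Ccnb1 holds 2 CCAAT words and no CHR, and that of Aurka none of the words.

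On each array 77.8% to 84.8% of the spots were well above background and none was saturated, and 54 of the 57 genes were well above background on all 18 arrays, the other 3 (Cdc25c, Cdt1 and Nek2) on 17. A level below is log2 of the signal minus the 75th percentile of its array, so levels compare a gene between arrays and not with another gene. The arrays came from 5 slides read on 3 days, and arrays of different groups on the same slide deviated together (median correlation 0.24 over 24 pairs), so values with slide as a block or within slides are given. Slide 3 held only replicate 2 of SHRSP at 6 weeks and replicate 2 of SHRSP at 3 weeks. Each stood highest in its group, with a median centred level over the 57 genes of 0.02 against -0.43 and -0.41 at 6 weeks, and 0.73 against 0.49 and 0.21 at 3 weeks. Replicate 2 of SHR at 3 weeks stood apart in a list of kidney and liver markers (5 of 7 genes tested). Their median centred level was 5.28 on that array, against -1.53 to 0.53 on the 17 others, and their summed level was 5.56, against -1.98 to 1.05. Counts and medians that use SHR at 3 weeks are therefore also given without it. In whole glands, fewer dividing cells and less RNA of these genes per cell cannot be told apart.

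**Figure D1:**
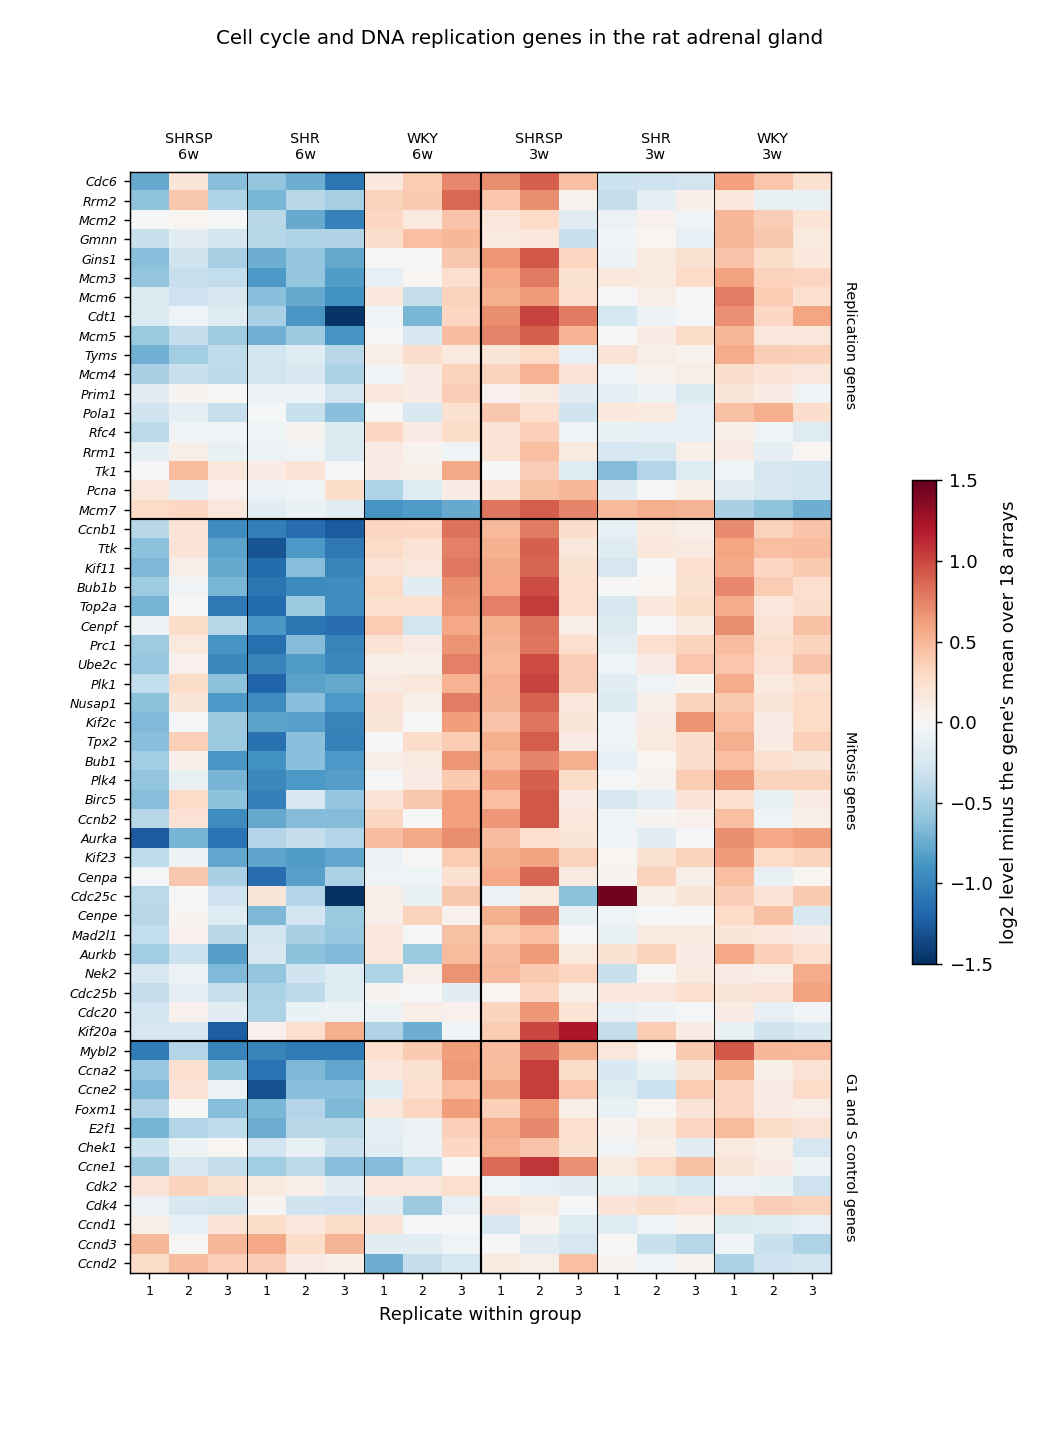
Levels of the 57 genes (rows, grouped by role and ordered by the difference of SHR from WKY at 6 weeks) on the 18 arrays (columns, grouped by strain and age), as log2 level minus the mean of the gene over the 18 arrays, with values past the ends of the scale in its end colours. The arrays of SHR at 6 weeks are the lowest for most mitosis genes, those of SHRSP at 6 weeks are low except replicate 2, and Mcm7 is low on every WKY array.

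At 6 weeks cell cycle genes were lower than in WKY far more often than higher in both hypertensive strains, and the median difference of the mitosis genes was further below 0 than that of the replication genes. In SHRSP 28 of the 57 genes were called (background: 23.9% of all genes tested), 25 lower (background 12.8%) and 3 higher (background 11.1%), with a median difference of -0.49. In SHR 41 were called (background 29.2%), 38 lower (background 13%) and 3 higher (background 16.2%), with a median of -0.82. Calls are at an adjusted p under 0.05 over all genes tested, in limma fits of all 18 arrays. Over all genes tested the median difference was -0.01 for SHRSP and 0.09 for SHR. These comparisons share the WKY arrays. With slide as a block 35 members were called in SHRSP (median -0.57) and 41 in SHR (median -0.80). On slide 5, the only slide with WKY and these strains at 6 weeks, the median was -0.48 in SHRSP (1 array against 1), with 45 of 57 genes below 0, and -0.65 in SHR (2 arrays against 1), with 49 below 0.

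**Figure D2:**
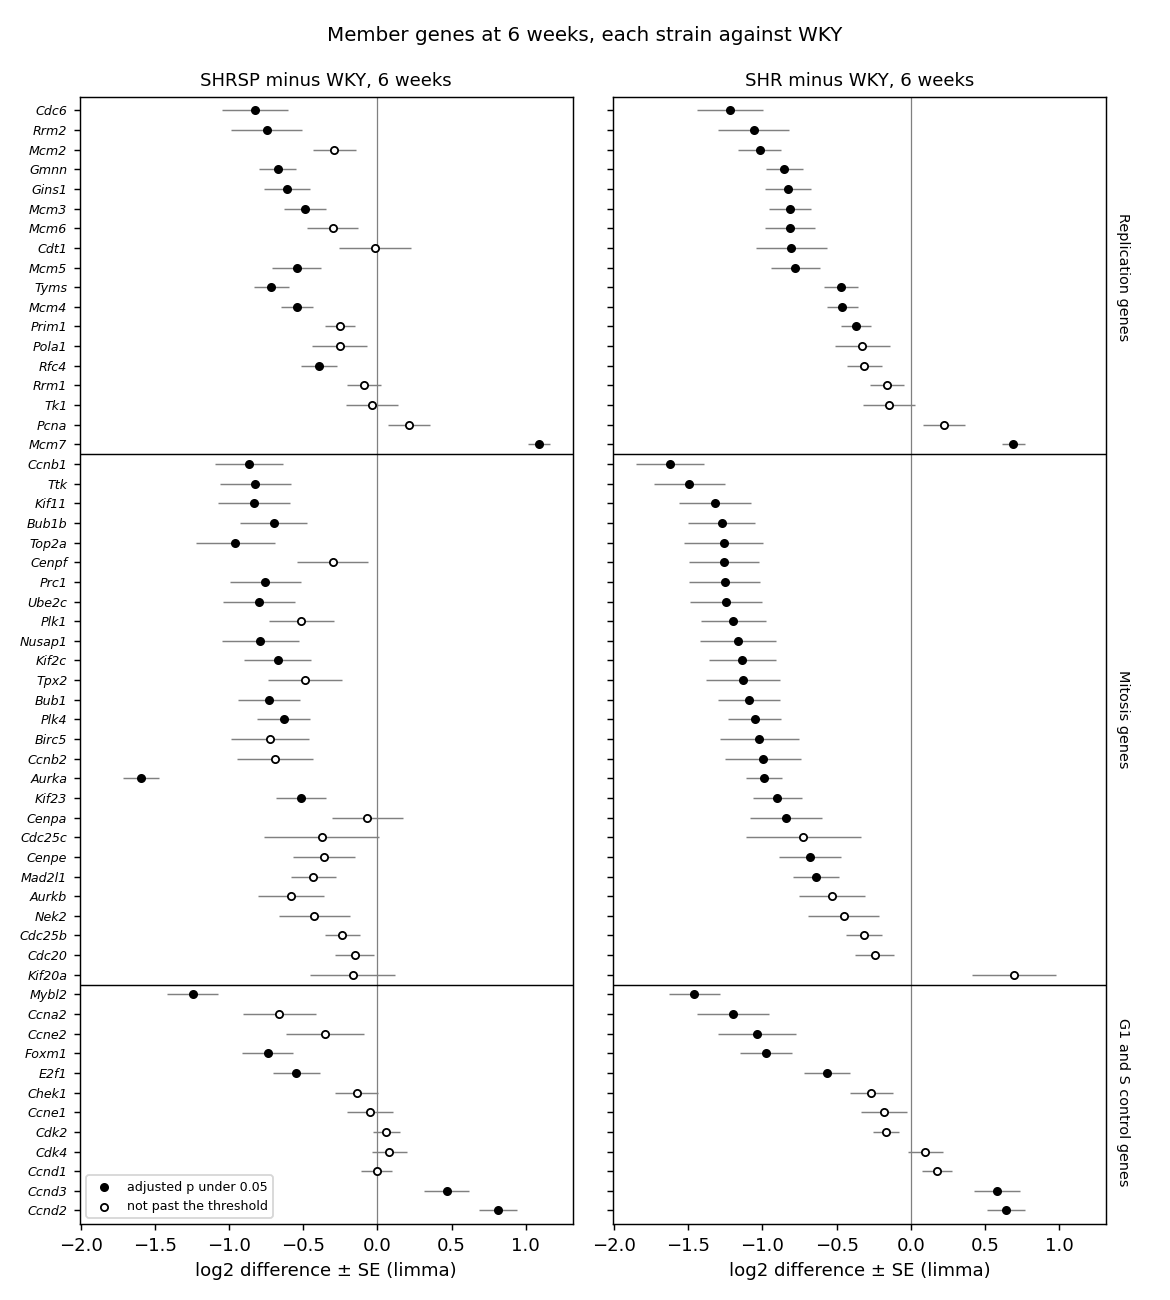
Differences at 6 weeks of SHRSP from WKY (left) and SHR from WKY (right) for each of the 57 genes, as log2 difference with the standard error of the limma fit, filled where the adjusted p was under 0.05. All 27 mitosis genes lie below 0 in SHRSP and 26 of 27 in SHR, with Kif20a at 0.70 the other, and Mcm7, Ccnd2 and Ccnd3 are the called genes above 0 in both.

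Among the mitosis genes, 13 of 27 were lower in SHRSP at 6 weeks (median -0.63, a ratio of 0.645) and 21 of 27 in SHR (median -1.05, a ratio of 0.482), and none was higher. Ccnb1 encodes cyclin B1, the partner that activates Cdk1 at entry into mitosis. At 6 weeks its level was -3.11, -2.51 and -3.63 in SHRSP, -3.74, -3.84 and -3.95 in SHR, and -2.38, -2.39 and -1.89 in WKY. At 3 weeks it was -2.21, -1.92 and -2.44 in SHRSP, -2.82, -2.56 and -2.61 in SHR, and -1.99, -2.35 and -2.27 in WKY. Every array of either hypertensive strain at 6 weeks was below every WKY array of that age, and SHR gave the lowest values. The difference from WKY at 6 weeks was -0.87 ± 0.23 in SHRSP (SE, adjusted p = 0.0126) and -1.63 ± 0.23 in SHR (adjusted p = 0.000137).

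Top2a stood at -2.83, -2.11 and -3.20 in SHRSP, -3.29, -2.69 and -3.07 in SHR, and -1.90, -1.90 and -1.47 in WKY at 6 weeks. Its levels at 3 weeks were -1.38, -1.09 and -1.88 in SHRSP, -2.38, -1.98 and -1.86 in SHR, and -1.58, -1.97 and -1.87 in WKY. Both hypertensive strains lay wholly below WKY at 6 weeks and overlapped each other. Top2a differed from WKY by -0.96 ± 0.27 in SHRSP (adjusted p = 0.0169) and by -1.26 ± 0.27 in SHR (adjusted p = 0.00284) on the log2 scale. Birc5 (survivin, which anchors the Aurora B complex) was at -2.33, -1.41 and -2.30 in SHRSP, -2.71, -1.94 and -2.28 in SHR, and -1.49, -1.29 and -1.08 in WKY at 6 weeks. The 3-week levels of Birc5 were -1.24, -0.76 and -1.57 in SHRSP, -1.93, -1.83 and -1.49 in SHR, and -1.44, -1.80 and -1.57 in WKY. At 6 weeks replicate 2 of SHRSP lay inside the WKY range and the SHR arrays did not. Birc5 was lower in SHR (-1.02 ± 0.27, adjusted p = 0.01), and its difference in SHRSP, -0.72 ± 0.27, did not pass the test (adjusted p = 0.0633), although it did with slide as a block (-0.88, adjusted p = 0.00721).

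Aurka, the spindle pole kinase Aurora A, was the mitosis gene with the largest difference in SHRSP. Its 6-week levels were -0.68, -0.14 and -0.54 in SHRSP, 0.13, 0.20 and 0.12 in SHR, and 1.03, 1.14 and 1.26 in WKY. At 3 weeks they were 1.02, 0.82 and 0.74 in SHRSP, 0.53, 0.40 and 0.54 in SHR, and 1.26, 1.15 and 1.19 in WKY. The 3 strains did not overlap at either age, but SHRSP was lowest at 6 weeks and SHR lowest at 3 weeks. At 6 weeks Aurka differed from WKY by -1.60 ± 0.12 in SHRSP (adjusted p = 4.75e-07) and -0.99 ± 0.12 in SHR (adjusted p = 3.76e-05), and SHRSP from SHR by -0.60 ± 0.12 (adjusted p = 0.0034). Cdk1, the kinase that drives mitosis, is the gene called Cdc2 on the array. Cdc2 was at -0.35, 0.37 and -0.56 in SHRSP, -0.71, -0.28 and -0.48 in SHR, and 0.51, 0.59 and 1.16 in WKY at 6 weeks. Its 3-week values were 1.02, 1.43 and 0.73 in SHRSP, 0.34, 0.62 and 0.83 in SHR, and 0.96, 0.73 and 0.79 in WKY. Cdc2 was lower at 6 weeks in SHRSP (-0.93 ± 0.24, adjusted p = 0.0121) and SHR (-1.25 ± 0.24, adjusted p = 0.0017), with no overlap with WKY.

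Of the other mitosis genes, the spindle checkpoint kinase Ttk differed by -0.82 in SHRSP and -1.49 in SHR, and the spindle motor Kif11 by -0.83 in SHRSP and -1.32 in SHR. All 4 differences were called. The ubiquitin enzyme Ube2c, the checkpoint kinases Bub1 and Bub1b, the midzone protein Prc1, Nusap1, Kif2c, Kif23 and Plk4 were likewise called lower in both strains. Plk1, Ccnb2, Tpx2, Cenpa, Cenpe, Cenpf, Birc5 and Mad2l1 were lower in SHR and did not pass the test in SHRSP, where they ranged from -0.72 (Birc5) to -0.07 (Cenpa). Fitted with slide as a block, 6 of these 8 were also called lower in SHRSP, from -0.88 (Birc5, adjusted p = 0.00721) to -0.53 (Mad2l1, adjusted p = 0.0128), and Cenpa and Cenpf were not. Not called in either strain were Aurkb, Cdc20, Cdc25b, Cdc25c, Nek2 and Kif20a, of which slide as a block called Aurkb in SHRSP (-0.64, adjusted p = 0.0162) and Cdc20 in SHR (-0.27, adjusted p = 0.0424).

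Among the replication genes 9 of 18 were lower and 1 higher in SHRSP at 6 weeks (median -0.35, a ratio of 0.786), and 12 of 18 lower and 1 higher in SHR (median -0.62, a ratio of 0.649). Mcm2, a helicase subunit, was at -1.66, -1.63 and -1.68 in SHRSP, -2.07, -2.41 and -2.67 in SHR, and -1.35, -1.51 and -1.23 in WKY at 6 weeks. The 3-week levels of Mcm2 were -1.49, -1.36 and -1.82 in SHRSP, -1.75, -1.59 and -1.72 in SHR, and -1.16, -1.29 and -1.46 in WKY. SHR lay below both other strains at 6 weeks. Mcm2 was lower than in WKY in SHR (-1.02 ± 0.14, adjusted p = 0.000146), while in SHRSP its difference of -0.29 ± 0.14 did not pass the test (adjusted p = 0.178).

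Mcm5 stood at -3.68, -3.49 and -3.66 in SHRSP, -3.85, -3.67 and -4.01 in SHR, and -3.16, -3.37 and -2.67 in WKY at 6 weeks. At 3 weeks Mcm5 was at -2.39, -2.23 and -2.61 in SHRSP, -3.13, -3.02 and -2.86 in SHR, and -2.63, -2.96 and -2.96 in WKY. SHRSP was the highest strain at 3 weeks, and at 6 weeks both hypertensive strains lay below WKY. At 6 weeks the difference from WKY was -0.55 ± 0.16 in SHRSP (adjusted p = 0.0258; -0.54 with adjusted p = 0.0508 with slide as a block) and -0.78 ± 0.16 in SHR (adjusted p = 0.00279). Rrm2, the regulated subunit of ribonucleotide reductase, was at 1.42, 2.43 and 1.56 in SHRSP, 1.34, 1.60 and 1.53 in SHR, and 2.36, 2.41 and 2.88 in WKY at 6 weeks. Its levels at 3 weeks were 2.44, 2.73 and 2.07 in SHRSP, 1.67, 1.89 and 2.10 in SHR, and 2.18, 1.92 and 1.91 in WKY. Replicate 2 of SHRSP alone reached the WKY range at 6 weeks. Rrm2 was lower in SHRSP (-0.75 ± 0.24, adjusted p = 0.0342) and in SHR (-1.06 ± 0.24, adjusted p = 0.00424), and with the mean of its 2 probes the SHRSP difference was -0.59 (adjusted p = 0.103).

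Pcna, the sliding clamp of the replication fork, was not called at 6 weeks. Its 6-week levels were 2.0, 1.70 and 1.90 in SHRSP, 1.75, 1.77 and 2.11 in SHR, and 1.37, 1.64 and 1.95 in WKY. At 3 weeks Pcna was at 2.04, 2.27 and 2.33 in SHRSP, 1.68, 1.82 and 1.92 in SHR, and 1.67, 1.59 and 1.56 in WKY. The strains overlapped at 6 weeks, and at 3 weeks SHRSP lay above the others. Neither 6-week difference from WKY was called, at 0.21 ± 0.14 in SHRSP (adjusted p = 0.332) and 0.22 ± 0.14 in SHR (adjusted p = 0.272).

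The other replication genes differed in which strain was called. The licensing factor Cdc6, the licensing inhibitor Gmnn (geminin), Mcm3, Mcm4, the helicase cofactor Gins1 and thymidylate synthase (Tyms) were lower in both strains. Mcm6, Cdt1 and Prim1 were lower in SHR (Cdt1 at -0.57 with adjusted p = 0.071 with slide as a block) and Rfc4 in SHRSP, whereas Rrm1, Tk1 and Pola1 were not called in either. Cdc45l, the helicase partner of the Mcm complex, was at -0.80, -0.40 and -0.52 in SHRSP, -0.65, -0.72 and -0.88 in SHR, and 0.22, 0.04 and 0.66 in WKY at 6 weeks. It was lower in SHRSP (-0.88 ± 0.15, adjusted p = 0.00075) and SHR (-1.05 ± 0.15, adjusted p = 0.000172).

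Mcm7 was higher than in WKY in both hypertensive strains at both ages, whereas none of Mcm2 to Mcm6, its partners in the same helicase ring, was called higher than in WKY at either age. At 6 weeks it was at 1.02, 1.04 and 0.90 in SHRSP, 0.57, 0.64 and 0.57 in SHR, and -0.16, -0.12 and -0.03 in WKY. At 3 weeks it was at 1.53, 1.64 and 1.47 in SHRSP, 1.22, 1.27 and 1.23 in SHR, and 0.24, 0.13 and -0.01 in WKY. The order SHRSP, SHR, WKY held at each age with no overlap. The difference from WKY at 6 weeks was 1.09 ± 0.08 in SHRSP (adjusted p = 2.45e-07) and 0.69 ± 0.08 in SHR (adjusted p = 1.76e-05). At 3 weeks it was 1.42 ± 0.08 in SHRSP (adjusted p = 2.75e-08) and 1.12 ± 0.08 in SHR (adjusted p = 4.33e-07). Mcm7 had 1 probe, at chr12:17607251-17607310 on the minus strand of rn4, and whether the strains differ in sequence under it was not tested.

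The genes of G1 and S phase control split by role. Their list also holds Mybl2 and Foxm1, named above as the factors under which mitosis genes are transcribed. At 6 weeks 3 of 12 were lower and 2 higher in SHRSP (median -0.10), and 5 of 12 lower and 2 higher in SHR (median -0.22). Without replicate 1 or 3 of WKY at 6 weeks these medians were -0.22 or -0.02 in SHRSP, and -0.35 or -0.13 in SHR. The transcription factors of the proliferation programme were lower and the D cyclins were not. Mybl2 differed from WKY by -1.25 ± 0.17 in SHRSP (adjusted p = 0.000113) and -1.46 ± 0.17 in SHR (adjusted p = 3.05e-05). Foxm1 was at -3.34, -2.89 and -3.52 in SHRSP, -3.57, -3.33 and -3.56 in SHR, and -2.71, -2.57 and -2.25 in WKY at 6 weeks. Its 3-week levels were -2.52, -2.22 and -2.79 in SHRSP, -2.98, -2.85 and -2.69 in SHR, and -2.56, -2.76 and -2.78 in WKY. Both hypertensive strains lay below WKY at 6 weeks, by -0.74 ± 0.17 in SHRSP (adjusted p = 0.00631) and -0.98 ± 0.17 in SHR (adjusted p = 0.000845). E2f1 was at -1.93, -1.68 and -1.62 in SHRSP, -1.97, -1.65 and -1.66 in SHR, and -1.38, -1.32 and -0.88 in WKY at 6 weeks. At 3 weeks E2f1 was at -0.68, -0.51 and -0.98 in SHRSP, -1.20, -1.10 and -0.91 in SHR, and -0.76, -0.95 and -1.01 in WKY. It was lower at 6 weeks in SHRSP (-0.55 ± 0.16, adjusted p = 0.0191) and SHR (-0.56 ± 0.16, adjusted p = 0.0141), with no overlap with WKY. The S phase cyclins Ccna2 and Ccne2 were lower in SHR, at -1.20 and -1.04, and were at -0.66 and -0.35 in SHRSP, not called. Ccna2 was, with slide as a block, called lower in SHRSP too (-0.81, adjusted p = 0.00689).

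Cyclin D2 (Ccnd2), which couples growth signals to G1, was at 1.07, 1.26 and 1.15 in SHRSP, 1.16, 0.92 and 0.87 in SHR, and 0.06, 0.43 and 0.53 in WKY at 6 weeks. Its 3-week levels were 0.93, 0.89 and 1.24 in SHRSP, 0.84, 0.74 and 0.85 in SHR, and 0.32, 0.48 and 0.52 in WKY. Both hypertensive strains lay above WKY at each age. The 6-week difference was 0.82 ± 0.13 in SHRSP (adjusted p = 0.000307) and 0.64 ± 0.13 in SHR (adjusted p = 0.00182). Ccnd3 was also higher at 6 weeks, by 0.47 in SHRSP and 0.58 in SHR. Its 1 probe is listed at chr8:77073561-77073615 of rn4, whereas the Ccnd3 promoter lies on chr9 of GRCr8. Whether that probe reads Ccnd3 was not tested, so its calls are uncertain as to gene. Ccnd1 stood at -1.40, -1.61 and -1.28 in SHRSP, -1.21, -1.31 and -1.22 in SHR, and -1.29, -1.50 and -1.48 in WKY at 6 weeks, with overlapping groups and no call. At 3 weeks Ccnd1 was at -1.73, -1.44 and -1.67 in SHRSP, -1.68, -1.55 and -1.44 in SHR, and -1.70, -1.67 and -1.61 in WKY.

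The median centred level of the 27 mitosis genes was -0.52, 0.06 and -0.70 in SHRSP, -0.91, -0.63 and -0.83 in SHR, and 0.16, 0.09 and 0.61 in WKY. That of the 18 replication genes was -0.32, -0.10 and -0.26 in SHRSP, -0.35, -0.38 and -0.49 in SHR, and 0.11, 0.06 and 0.35 in WKY. The mitosis median minus the replication median averaged -0.16 ± 0.30 in SHRSP, -0.38 ± 0.16 in SHR and 0.11 ± 0.13 in WKY at 6 weeks (SD, n = 3 each), so in SHRSP the spread exceeded the mean. It was below 0 on all 3 SHR arrays and on replicates 1 and 3 of SHRSP, and above 0 on replicate 2 of SHRSP and on all 3 WKY arrays. At 3 weeks the same quantity averaged 0.16 ± 0.17 in SHRSP, 0.07 ± 0.09 in SHR and 0.04 ± 0.09 in WKY. All 3 SHR arrays at 6 weeks, from -0.56 to -0.25, lay below the 15 other arrays except replicate 3 of SHRSP at 6 weeks (-0.43), and SHRSP spanned -0.43 to 0.16. The medians of both gene groups moved together over the 18 arrays (Pearson r = 0.96, a description of arrays that share slides and groups). Within slide 5 the mitosis median was -0.80 and the replication median -0.17 for SHRSP against WKY, and -0.84 and -0.47 for SHR against WKY. No test of the mitosis genes against the replication genes was made, since the lists were chosen with results of these data known.

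**Figure D3:**
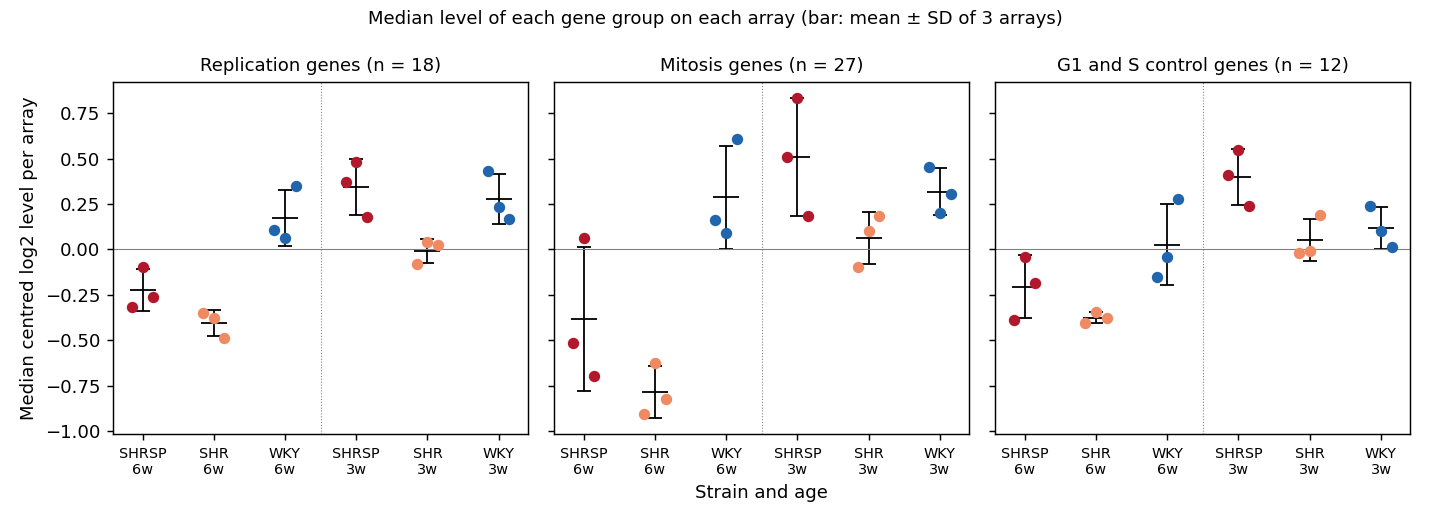
Median centred log2 level of the replication, mitosis and G1 and S control genes on each array (points), with the mean and SD of the 3 arrays of each group (bars). SHR at 6 weeks is the lowest group in all 3 panels, averaging -0.79 for mitosis genes and -0.40 for replication genes, and replicate 2 of SHRSP at 6 weeks stands above its group for the mitosis genes.

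Other genes of the same processes, listed separately, were also lower more often than higher at 6 weeks. These lists too were chosen with earlier results of these data known, so they are not independent support. The background shares were 12.8% lower and 11.1% higher in SHRSP, and 13% lower and 16.2% higher in SHR. Of 36 other mitosis genes 13 were lower and 2 higher in SHRSP (median -0.54), and 24 lower and 1 higher in SHR (median -0.98). Dlgap5, a spindle assembly factor, was lower, at -1.37 in SHRSP and -1.76 in SHR, with Spag5 (-1.20) and the kinetochore protein Spc25 (-1.07) next in SHRSP and Kif18a (-1.07) and Spc25 (-1.70) in SHR. Zwint was higher in both (0.48 in SHRSP, 0.47 in SHR), and Wee1, the kinase that holds Cdk1 inactive, in SHRSP (0.70). Of 27 other replication genes 10 were lower in SHRSP (median -0.31) and 17 in SHR (median -0.52), with none higher. They included Rfc3 (-1.07), Gins4 (-0.55) and Pold2 (-0.56) in SHRSP, and Gins2 (-1.33), Chaf1a (-0.97) and Rfc3 (-0.76) in SHR.

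Inhibitors of the cycle were called in either direction. Of 17 tested, 3 were higher (background 11.1%) and 4 lower (background 12.8%) in SHRSP at 6 weeks, and 5 higher (background 16.2%) and 5 lower (background 13%) in SHR. The CDK inhibitor genes Cdkn2b (p15) and Cdkn1c (p57) were higher in both, by 1.58 and 1.11 in SHRSP and by 0.66 and 0.90 in SHR. Ccng1 was also higher in SHRSP (0.30) and Rb1, the retinoblastoma gene, in SHR (0.34). The lower ones included Btg2 (-1.60), Rbl2 (-0.37) and Cdkn3 (-1.34) in SHRSP, and Cdkn2c (-0.76), E2f8 (-1.14) and Cdkn1b (-0.48) in SHR.

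The count in SHRSP at 6 weeks depended on single arrays. Leaving out replicate 3 of WKY at 6 weeks left 8 called genes of 28, leaving out replicate 1 or 3 of SHRSP at 6 weeks left 10 and 12, and a fit of these 6 arrays alone left 7. Without replicate 2 of SHRSP at 6 weeks, the array on slide 3, 34 were called. The median kept its sign throughout, from -0.58 to -0.38. In SHR the count stayed between 37 and 42 when any array was left out.

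SHRSP and SHR differed from each other at 6 weeks in few genes. Of the 57, 7 were called (background 14.9%), 6 higher in SHRSP than in SHR (background 6.74%) and 1 lower (background 8.21%), with a median of 0.30 against -0.11 over all genes tested. The kinetochore protein Cenpf (0.96), the licensing factor Cdt1 (0.79), the centromeric histone Cenpa (0.77) and Ccnb1 (0.76 ± 0.23, adjusted p = 0.0383) were the largest, followed by Mcm2 and Mcm7, while Aurka was lower. Without replicate 2 of SHRSP at 6 weeks 3 were called and the median was 0.10, and without replicate 2 or 3 of SHR at 6 weeks, or replicate 3 of WKY at 3 weeks, 4 were called. The median with slide as a block was 0.10, and Ccnb1 (0.47, adjusted p = 0.0756), Cdt1 (0.59, adjusted p = 0.0785) and Cenpa (0.57, adjusted p = 0.113) were no longer called. Cenpf still was (0.66, adjusted p = 0.0232), and Ccne2 (0.58, adjusted p = 0.0266) and Kif20a (-1.06, adjusted p = 0.0264) were called in addition. Within slides the median was 0.19 (slide 2) and 0.11 (slide 5).

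With age, the cell cycle genes fell in SHRSP and SHR, and few were called in WKY. Between 6 and 3 weeks 40 of 57 genes were lower and 2 higher at 6 weeks in SHRSP (42 called, background 28.9% in either direction, 18.4% lower and 10.5% higher, median -0.80). In SHR 38 were lower and 3 higher (41 called, background 29.3%, 14.1% lower and 15.1% higher, median -0.70). In WKY 1 was lower and 1 higher (2 called, background 12.3%, 7.16% lower and 5.16% higher, median -0.06), where 35 of 57 differences were below 0. Over all genes tested the medians were -0.09 in SHRSP, 0.08 in SHR and 0.02 in WKY. Among mitosis genes 23 of 27 fell in SHRSP (median -0.91) and 21 in SHR (median -0.93), against none in WKY (median -0.05, with 1 gene at an unadjusted p under 0.05). Among replication genes 10 of 18 fell in SHRSP (median -0.58) and 10 in SHR (median -0.40), against none in WKY (median -0.07, with 9 at an unadjusted p under 0.05).

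The genes with the largest falls in SHRSP were the midzone motor Kif20a (-1.44), Mybl2 (-1.44 ± 0.17, adjusted p = 3.24e-05), Aurka (-1.32 ± 0.12, adjusted p = 2.82e-06) and Top2a (-1.26 ± 0.27, adjusted p = 0.00278). In SHR they were Mybl2 (-1.24), Ccnb1 (-1.18 ± 0.23, adjusted p = 0.00177), the phosphatase Cdc25c (-1.16, with overlapping groups) and the microtubule depolymerase Kif2c (-1.12). Ccnd3, by its probe listed on chr8, rose with age in SHRSP (0.48) and SHR (0.70). Cdk2 rose in SHRSP (0.36) and WKY (0.36), Tk1 (0.53) and Ccnd1 (0.31, and 0.28 with adjusted p = 0.143 with slide as a block) in SHR, and Cdk4 fell in WKY (-0.62) and SHR (-0.41). The age changes of SHRSP and SHR share no array. Of the genes lower at 6 weeks 32 were common to both, 80% of the 40 in SHRSP and 84.2% of the 38 in SHR. Over all genes tested 1534 were common, 39.9% of those in SHRSP and 52.1% of those in SHR. The members were called lower far more often than all genes, which alone raises their common share. These shares therefore do not compare how closely the 2 strains matched. Mcm7 fell with age in SHRSP (-0.56) and SHR (-0.65) although it stayed above WKY at 6 weeks.

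With slide as a block 41 genes were called in SHRSP (median -0.74) and 34 in SHR (median -0.59). The genes no longer called in SHR were Aurka, Aurkb, Ccnd1, Cdc25c (-0.76, adjusted p = 0.239), Cdk4 (-0.23, adjusted p = 0.0956), Cdt1, Mad2l1 and Mcm4, and in SHRSP Nek2 and Rrm1, while Cenpe was called in addition in both. Without replicate 2 of SHR at 3 weeks 29 were called in SHR (median -0.68). The age difference within a single slide had a median of -0.67 in SHRSP (slide 3, 53 of 57 below 0) and -0.71 in SHR (slide 2, 49 below 0), each from 1 array per age. In WKY it was -0.32 on slide 1 and 0.24 on slide 4, opposite signs in the 2 pairs. With normexp background correction the SHR median was -0.42.

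**Figure D4:**
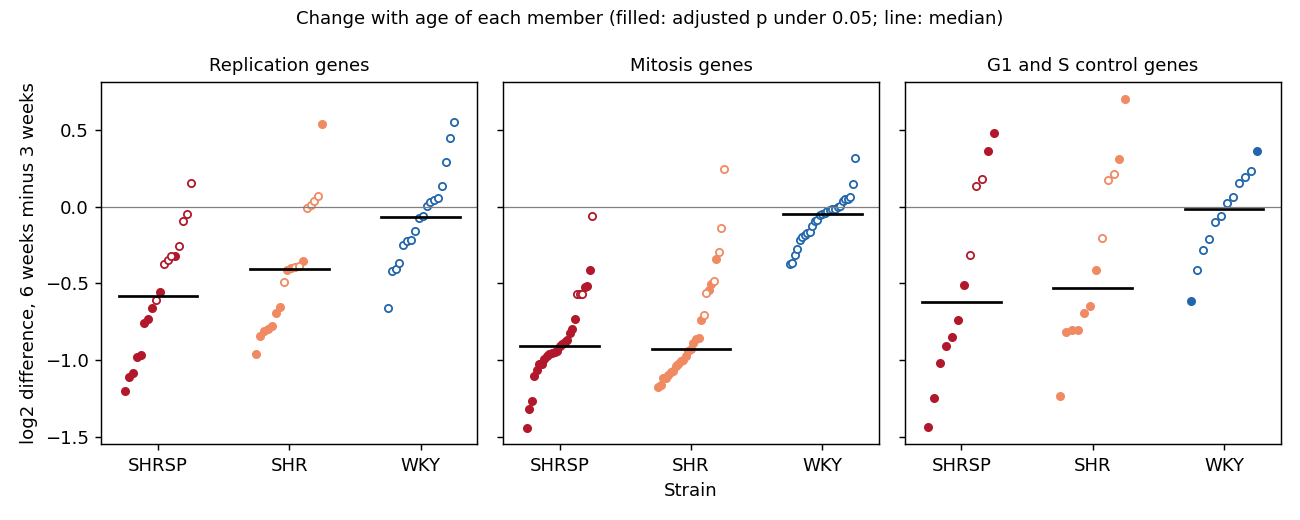
Difference between 6 and 3 weeks of each gene in SHRSP, SHR and WKY, by role, with filled points where the adjusted p was under 0.05 and a line at the median. The mitosis genes centre on -0.91 in SHRSP, -0.93 in SHR and -0.05 in WKY, and no mitosis or replication gene is filled in WKY.

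Tested directly, the age change differed from that of WKY for 13 of the 57 genes in SHRSP, all more negative (background 10.1% in either direction, 6.35% more negative and 3.71% more positive). It differed for 2 in SHR, Mybl2 and Mcm7, both more negative (background 5.81%, 2.4% more negative and 3.41% more positive). These 2 were a smaller share of the 57 than the 5.81% of all genes called in either direction. There were 18 for SHRSP with slide as a block, without E2f1 and with Birc5, Ccna2, Ccnb1, Ccnb2, Cdc20 and Ube2c in addition, and 7 for SHR, with Ccnb1, Foxm1, Kif2c, Ttk and Ube2c in addition. At an unadjusted p under 0.05 there were 35 genes for SHRSP and 30 for SHR. The median difference of age changes was -0.61 for SHRSP and -0.54 for SHR, and these comparisons share the WKY arrays. In SHRSP they were 3 mitosis genes (Top2a, Aurka and Bub1), 6 replication genes (Mcm4, Mcm5, Cdc6, Rrm2, Rfc4 and Gins1) and 4 control genes (Mybl2, Foxm1, Ccne1 and E2f1). Top2a (-1.31 ± 0.38, adjusted p = 0.0411), Aurka (-1.26), Mybl2 (-1.23) and Rrm2 (-1.16) had the largest differences, and E2f1 was the nearest to the threshold (adjusted p = 0.04996). The age change of SHRSP was more negative than that of SHR for Kif20a (-1.69 ± 0.41, adjusted p = 0.0151) and Aurka (-0.98 ± 0.17, adjusted p = 0.00197) (background 11.9%, 7.47% more negative and 4.43% more positive). The median was -0.09, against -0.17 over all genes tested. Without replicate 2 of SHR at 3 weeks the median of the members was -0.08, with 2 genes called. These counts moved with single arrays. For SHRSP against WKY they were 5 without replicate 2 of SHRSP at 3 weeks, replicate 1 of SHRSP at 6 weeks, or replicate 2 or 3 of WKY at 3 weeks. They were 6 without replicate 3 of WKY at 6 weeks, 7 without replicate 3 of SHRSP at 6 weeks, and 8 without replicate 1 of SHRSP at 3 weeks or replicate 2 of SHR at 3 weeks. Without replicate 2 of SHRSP at 6 weeks there were 26. For SHR against WKY there were 0 without replicate 3 of SHR at either age, replicate 2 or 3 of WKY at 3 weeks, or replicate 3 of WKY at 6 weeks, where limma called none of the 57 and 19 to 28 had an unadjusted p under 0.05. There was 1 without replicate 2 of SHR at 3 weeks (median -0.51), and there were 9 without replicate 2 of SHRSP at 6 weeks.

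At 3 weeks fewer of these genes differed between the strains. In SHRSP 6 of 57 genes were called (background 26.2%), all higher than in WKY (background 14.8%) and none lower (background 11.4%; 13 had an unadjusted p under 0.05 in either direction), a share of the genes below the background, with a median of 0.18 against 0.09 over all genes. The median was 0.06 without replicate 2 of SHRSP at 3 weeks and 0.32 without replicate 3. They were Mcm7, Kif20a (1.08), cyclin E1 (Ccne1, 0.79), Pcna (0.61 ± 0.14, adjusted p = 0.00566), Ccnd2 (0.58) and the mitotic exit factor Cdc20 (0.42). In SHR 4 were called (background 18.2%), of which Mcm7 was higher than in WKY (background 9.01%) and 3 were lower, Cdc6 (-0.72), Aurka (-0.71) and Gmnn (-0.40) (background 9.2%), with a median of -0.20. Leaving out any array of SHR at 3 weeks, or replicate 1 or 2 of WKY at 3 weeks, left 2 called. Without replicate 2 of SHR, the array with kidney and liver markers at 5.28, the median was -0.20, and the part of those markers in the cell cycle differences was not tested. Within slides the SHR median was -0.49, -0.10 and 0.00 on slides 1, 2 and 4, and the SHRSP median 0.04 and 0.01 on slides 1 and 4. With slide as a block 9 genes were called in SHRSP (median 0.05), with Aurka (-0.44), Gmnn (-0.41) and Tyms (-0.37) lower in addition. It called 9 in SHR (median -0.20), with Cdt1, Mcm2, Mybl2 and Tyms lower and Ccnd2 higher in addition.

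SHRSP exceeded SHR at 3 weeks in 8 genes (background 4.73%), with none lower (background 3.2%; 7.94% called in either direction, and 30 of the 57 at an unadjusted p under 0.05), and a median of 0.41 against 0.09 over all genes tested. They included 6 of the 18 replication genes, with Cdc6 (0.99), Cdt1 (0.96) and Mcm5 (0.59) first, and Ccne1 (0.58). Without replicate 2 of SHRSP at 3 weeks none was called by limma (13 had an unadjusted p under 0.05), without replicate 1 of SHRSP 2 were, and without replicate 1 or 2 of SHR at 3 weeks 1 was (median 0.42 without replicate 2). Without replicate 3 of SHR at 3 weeks, replicate 2 or 3 of WKY at 3 weeks, or replicate 3 of SHRSP at 6 weeks, 4 were. With slide as a block 4 were called (median 0.25), without Ccne1 (0.49, adjusted p = 0.0869), Gins1 (0.42, adjusted p = 0.118), Mcm5 (0.50, adjusted p = 0.0982) and Rrm1 (0.30, adjusted p = 0.107), and within slides the median was 0.55 (slide 1) and 0.04 (slide 4).

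Kif20a, a motor of the central spindle, had another order of groups. At 6 weeks it was at -1.55, -1.53 and -2.53 in SHRSP, -1.23, -1.03 and -0.75 in SHR, and -1.74, -2.03 and -1.33 in WKY. At 3 weeks it was at -0.91, -0.29 and -0.08 in SHRSP, -1.65, -0.91 and -1.19 in SHR, and -1.39, -1.59 and -1.52 in WKY. SHR lay above WKY at 6 weeks without a call (0.70 ± 0.29, adjusted p = 0.0848), and SHRSP lay above WKY at 3 weeks (1.08 ± 0.29, adjusted p = 0.0122). Its age change was -1.44 ± 0.29 in SHRSP and 0.24 ± 0.29 in SHR (not called).

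**Figure D5:**
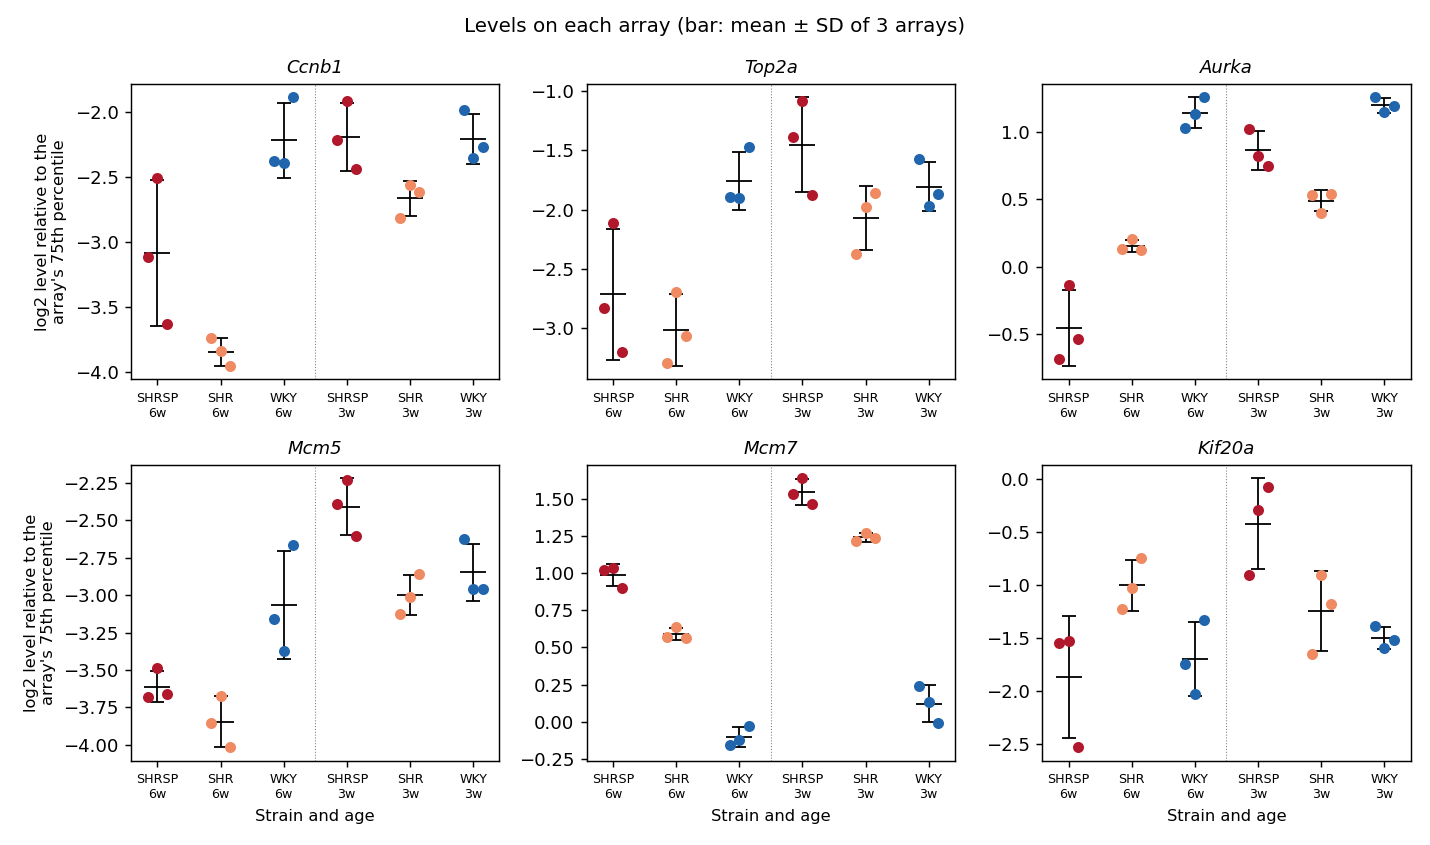
Levels of Ccnb1, Top2a, Aurka, Mcm5, Mcm7 and Kif20a on each array (points, log2 relative to the 75th percentile of the array), with the mean and SD of the 3 arrays of each group. Ccnb1 is lowest in SHR at 6 weeks, Aurka in SHRSP at 6 weeks, Mcm7 lies higher in both hypertensive strains at both ages, and Kif20a is highest in SHRSP at 3 weeks.

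Markers of other cells also differed between groups. Over all genes tested the share called lower at 6 than at 3 weeks was 18.4% in SHRSP, 14.1% in SHR and 7.16% in WKY. Against WKY at 6 weeks 12.8% were lower and 11.1% higher in SHRSP, and 13% lower and 16.2% higher in SHR. The red cell list (4 of 7 genes tested) was lower at 6 than at 3 weeks for all 4 genes in SHRSP and in SHR and for 1 in WKY, and lower than in WKY at 6 weeks for 2 genes in SHRSP and 2 in SHR. Its summed level ran from 6.80 to 7.25 in SHRSP, 6.98 to 7.03 in SHR and 7.25 to 7.45 in WKY at 6 weeks, and from 7.36 to 7.67, 7.45 to 7.58 and 7.53 to 7.73 in SHRSP, SHR and WKY at 3 weeks. The chromaffin cell list was higher at 6 weeks for 5 of 7 genes in SHRSP and 6 of 7 in SHR, the seventh being lower in SHR, with a summed level of 6.88 to 7.19 in SHRSP, 6.94 to 7.18 in SHR and 6.20 to 6.33 in WKY. The chromaffin level already stood apart at 3 weeks, without overlap. It then ran from 7.08 to 7.25 in SHRSP, 6.81 to 6.87 in SHR and 6.48 to 6.59 in WKY. Fat markers were lower at 6 than at 3 weeks for 2 of 6 genes in SHRSP and 4 of 6 in SHR, and lower than in WKY at 6 weeks for none in SHRSP and 2 in SHR. The summed fat level ran from 5.50 to 6.03 in SHRSP, 5.11 to 5.62 in SHR and 5.55 to 6.73 in WKY at 6 weeks, and from 5.85 to 6.74 in SHRSP, 6.07 to 7.12 in SHR and 5.28 to 6.33 in WKY at 3 weeks. Adrenal cortex markers were higher than in WKY at 6 weeks for 4 of 8 genes in either strain, with none lower, and their summed level ran from 9.42 to 9.56 in SHRSP, 9.59 to 9.71 in SHR and 9.45 to 9.56 in WKY. At 3 weeks the cortex level ran from 9.64 to 9.80 in SHRSP, 9.51 to 9.59 in SHR and 9.46 to 9.55 in WKY. All the tested red cell markers were well above background on all 18 arrays. The part of these cell types in the cell cycle differences was not tested.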

How the data were processed

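Total RNA of 18 rat adrenal samples was hybridised to single-colour Cy3 Agilent arrays. The deposited values are processed signal intensity on a linear scale, read with Agilent Feature Extraction 10.5.1.1 per the file headers and the submitters' processing notes, and not normalized between arrays. The values of the authors' deposited series table equal these intensities (largest difference 0). The deposited intensities were taken here as log2 minus the 75th percentile of each array, without control spots (42877 of 44254 spots kept) or outlier spots, and repeated spots were averaged. The brightest of a gene's probes stood for it, and a gene was tested if some group had its probe well above background on each of its 3 arrays.

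Group means were fitted over all 18 arrays with limma 3.58.1 (lmFit and eBayes, R 4.3.3, 12 residual degrees of freedom), giving 9 differences between groups and 3 differences of age changes, with Benjamini-Hochberg adjustment over all genes tested and a threshold of 0.05. The number of arrays limits the precision. On simulated data with 20660 genes, for SHR against WKY at 6 weeks, the fit called 70% of genes changed by 1 log2 unit and 29% of those changed by 0.5, and 5.71% of its calls were false. The simulation changed only 200 genes and drew the noise of each gene and array independently. In the data 29.2% of genes were called in that comparison and arrays of a slide deviated together. The simulated rates therefore need not hold for the data. Replicate numbers do not pair the samples (same-number arrays of different groups had a median correlation of 0.03, and 13 of 45 pairs were over 0.1). Alternatives covered normalization, background, filters, probes, names, slide, scan day, replicate block and each array left out. The arrays of slide 3 were also left out, an alternative chosen after seeing the data.

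Named in each comparison are the called members with the 4 largest rises and falls, a set of members given on every array, and up to 3 called genes each way from the lists of other pathway genes. Further called or uncalled members are named to account for the list. The members and lists were chosen with earlier results of these data known. Probe positions are on rn4, and which exon or UTR a probe lies in was not analysed here.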

Additional observations from a re-analysis of the deposited data

Results flagged for a closer look

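The change between 6 and 3 weeks differed between strains, by the test of that difference itself, for the genes below, each value being the first strain's log2 age change minus the second's. For SHRSP minus WKY the mitosis genes were Top2a at -1.31, Aurka at -1.26 and Bub1 at -1.03, and Cdc2, the array's name for Cdk1, was at -1.16. The replication genes were Rrm2 at -1.16, Cdc6 at -1.09, Mcm5 at -0.98, Gins1 at -0.96, Mcm4 at -0.69 and Rfc4 at -0.61. The control genes were Mybl2 at -1.23, Foxm1 at -0.93, Ccne1 at -0.84 and E2f1 at -0.73. For SHR minus WKY they were Mybl2 at -1.02 and Mcm7 at -0.43. For SHRSP minus SHR they were Kif20a at -1.69 and Aurka at -0.98. Adjusted p-values of limma ran from 0.000536 (Aurka, SHRSP against WKY) to 0.04996 (E2f1). With slide as a block, 12 of the 13 members remained for SHRSP against WKY, without E2f1, and both remained in each other comparison. With the mean of its 2 probes Rrm2 was at -1.10 (adjusted p = 0.0598). No group had enough arrays for a search for single outlying arrays.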

How the results depend on the processing

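For Top2a, Ccnb1, Aurka, Birc5, Mcm2, Mcm5, Mcm7, Pcna, Rrm2, Ccnd1, Ccnd2, E2f1, Foxm1 and Cdc2, no called difference changed sign under any alternative run. The signs of the other called members were followed only with slide as a block, where calls made in both fits kept their sign. With 1 array left out the median between ages in WKY ranged from -0.19 to 0.03, and that of the age change of SHRSP against SHR from -0.26 to 0.06. The differences of SHR from WKY at 6 weeks, of SHRSP between ages, and of SHR between ages kept their counts within 1.5 times of 41, 42 and 41, apart from 27 for SHRSP between ages in a fit of the compared groups alone. That fit gave 7 for SHRSP against WKY and 2 for SHRSP against SHR at 6 weeks, 2 for SHRSP against SHR and 10 for SHR against WKY at 3 weeks, 1 for WKY between ages, and 4 and 5 for the age changes of SHR and SHRSP against WKY. Without a filter on dim probes, counts were 3 (SHRSP against SHR) and 2 (SHR against WKY) at 3 weeks, 4 (SHRSP against SHR) at 6 weeks, and 1 and 7 for the age changes of SHR and SHRSP against WKY. With all arrays required above background the age change of SHR against WKY had 4. Quantile normalization gave 4 for SHRSP against SHR at 3 weeks, and 1 and 7 for the age changes of SHR and SHRSP against WKY. Normexp gave 4 for SHRSP against SHR at 6 weeks and 1 for the age change of SHR against WKY, with medians of -0.56 (SHR against WKY at 6 weeks), -0.42 (SHR between ages) and -0.37 (age change of SHR against WKY). Slide as a block gave 4 and 9 for SHRSP against SHR and SHR against WKY at 3 weeks and 7 for the age change of SHR against WKY, with medians of 0.10 (SHRSP against SHR at 6 weeks) and -0.59 (SHR between ages). Scan day as a block gave 7 for SHR against WKY at 3 weeks, 5 for the age change of SHR against WKY, and a median of -0.56 for SHR between ages. Without slide 3, SHRSP against SHR had 1 at 3 weeks and 3 at 6 weeks (median 0.10). The replicate block gave 5 for SHRSP against SHR at 3 weeks, against 8 without it, and the numbers do not pair the samples. Leaving out 1 array at a time gave 0 to 10 for SHRSP against SHR and 2 to 6 for SHR against WKY at 3 weeks, 3 to 9 for SHRSP against SHR (median 0.10 to 0.33) and 8 to 34 for SHRSP against WKY at 6 weeks, and 0 to 9 and 5 to 26 for the age changes of SHR and SHRSP against WKY. The cause of these shifts was not tested, except that fewer arrays leave fewer degrees of freedom. Dim probes limit Cdc25c, Cdt1 and Nek2, which were not above background on 1 array each.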

Other observations

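A second probe was present for 14 of the 57 genes. For SHR against WKY at 6 weeks, the second probe of Top2a was at -1.31 (-1.26 for the probe used), that of Prc1 at -1.57 (-1.25), that of Mybl2 at -1.04 (-1.46) and that of Rrm2 at -0.93 (-1.06). The second probe of Bub1 was at 0.11, against -1.09 for the probe used, and was above background on 3 of 18 arrays. The second probe of Cenpf was at -0.67 for SHRSP against WKY at 6 weeks, against -0.30 for the probe used, which was not called. For Nek2, not called in either strain, the second probe was at -1.14 in SHR and -0.59 in SHRSP at 6 weeks. The Nek2 probe used was at -0.45 and -0.43, and the second was above background on 16 of 18 arrays.

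Cdkn1c, the gene of the CDK inhibitor p57, fell with age in SHRSP (-0.48), SHR (-0.87) and WKY (-1.39), and Cdkn2b, the gene of p15, rose with age in SHRSP (1.81) and SHR (1.17). The age change of Cdkn2b differed from that of WKY by 1.60 in SHRSP (adjusted p = 0.000836) and 0.97 in SHR (adjusted p = 0.027), and that of Cdkn1c by 0.91 in SHRSP (adjusted p = 0.0146).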
